A study of Homo sapiens with 24 samples.

Results

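Pericentromeric domains of H4K20me3 (trimethylation of histone H4 at lysine 20, a heterochromatin mark) were taken as the broad peaks whose midpoint lay within 5 Mb of a centromere in hg38. The centromeres of chromosomes 1 to 18 and 20 to 22 were used, which gave 21 windows, and chromosomes 19, X and Y were left out. Overlapping peaks of the 14 H4K20me3 lists were merged into 1538 regions, of 32146 such regions in the whole series. The rule used positions only and no measured change.

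The mark was mapped by CUT&RUN, in which a nuclease tethered by an antibody cuts out the DNA around the marked histone, in HN-SCC-151, an established wild-type squamous carcinoma line of the head and neck that carries no HPV. In the inhibitor arm, 3 libraries came from cells given A-196 at 2.5 µM, a small molecule that inhibits SUV420H1 (gene KMT5B) and its paralog SUV420H2 (KMT5C), and 3 came from DMSO-treated cells. The siRNA arm had 4 libraries after knockdown of SUV420H1 (siSUV420H1) and 4 after transfection of control siRNAs (siNC). Cells of both arms were collected after 6 days, and the question was where the mark lay once the enzyme was blocked or depleted. The design names 3 dishes per condition while the siRNA arm has 4 libraries per group, so some libraries may share a dish and p-values measure only the spread between these libraries. A single cell line was used, the efficiency of the knockdown was not analysed here, and peaks of the inhibitor arm were called against an IgG library of DMSO cells while those of the siRNA arm were called against an IgG library with no treatment in its label.

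Pericentromeric heterochromatin flanks the satellite arrays on which the centromere is built. In the textbook pathway, SUV39H enzymes place H3K9me3 there, HP1 binds it and recruits the SUV420H enzymes, and these convert H4K20me1 into the dimethylated and trimethylated forms, with SUV420H2 as the main source of H4K20me3 in pericentromeric chromatin of mouse cells. Outside the satellites, the same stretches of human chromosomes hold segmental duplications, clusters of KRAB zinc finger genes and clusters of olfactory receptor genes.

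The lists hold intervals and no reads, so the domains are shown by the start sequences of 5 window genes whose promoters differed in how peaks lay over them. Each run is the RefSeq promoter of GRCh38.p14 (250 bases before to 50 after the annotated start, 5′ to 3′ on the gene's strand), with every CpG in capitals. The genes were chosen after their values were seen.
ZNF716, chr7:57449927-57450226, plus strand: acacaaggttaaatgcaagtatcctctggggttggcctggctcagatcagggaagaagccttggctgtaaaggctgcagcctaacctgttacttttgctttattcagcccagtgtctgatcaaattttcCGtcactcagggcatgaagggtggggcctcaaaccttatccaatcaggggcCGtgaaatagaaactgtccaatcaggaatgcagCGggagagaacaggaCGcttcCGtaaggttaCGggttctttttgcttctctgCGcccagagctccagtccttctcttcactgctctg
TPTE, chr21:10521333-10521632, plus strand: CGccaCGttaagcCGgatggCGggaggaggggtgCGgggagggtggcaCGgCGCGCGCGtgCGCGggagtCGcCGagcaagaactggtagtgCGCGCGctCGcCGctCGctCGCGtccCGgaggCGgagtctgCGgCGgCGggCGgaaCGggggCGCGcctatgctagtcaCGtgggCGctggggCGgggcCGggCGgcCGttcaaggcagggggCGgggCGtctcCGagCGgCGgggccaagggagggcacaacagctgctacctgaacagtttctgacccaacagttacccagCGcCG
ZNF514, chr2:95159536-95159835, minus strand: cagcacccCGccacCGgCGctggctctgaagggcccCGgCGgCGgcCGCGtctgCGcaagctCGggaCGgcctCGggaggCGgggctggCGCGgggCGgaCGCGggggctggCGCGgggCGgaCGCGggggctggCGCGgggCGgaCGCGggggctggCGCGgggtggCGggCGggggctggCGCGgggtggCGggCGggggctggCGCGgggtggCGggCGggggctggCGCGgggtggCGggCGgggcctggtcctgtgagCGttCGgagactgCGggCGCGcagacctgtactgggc
OR4K1, chr14:19930667-19930966, plus strand: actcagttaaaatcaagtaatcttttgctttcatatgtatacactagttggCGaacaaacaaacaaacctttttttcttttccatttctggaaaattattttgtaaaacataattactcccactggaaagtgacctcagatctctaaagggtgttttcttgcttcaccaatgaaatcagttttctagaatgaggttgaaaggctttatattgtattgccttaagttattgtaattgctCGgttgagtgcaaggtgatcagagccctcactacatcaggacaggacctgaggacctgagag
NDUFS4, chr5:53560389-53560688, plus strand: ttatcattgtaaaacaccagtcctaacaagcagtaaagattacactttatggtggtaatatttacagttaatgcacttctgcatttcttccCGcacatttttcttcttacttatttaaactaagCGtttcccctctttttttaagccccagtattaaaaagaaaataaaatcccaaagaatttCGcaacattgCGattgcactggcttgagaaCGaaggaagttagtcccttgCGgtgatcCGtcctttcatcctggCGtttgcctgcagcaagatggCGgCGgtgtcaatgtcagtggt

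The promoter of ZNF716, a C2H2 zinc finger gene, holds 7 CpG and lay under a peak in all 14 libraries. The promoter of TPTE, which encodes a testis-expressed membrane protein, holds 44 CpG and lay under a peak in 4 of 4 siSUV420H1 libraries, 0 of 4 siNC, 0 of 3 A-196 and 0 of 3 DMSO libraries. ZNF514, a zinc finger gene with 49 CpG in this stretch, had its promoter under a peak in 4 of 4 siSUV420H1 and 0 of 4 siNC libraries, and in 1 of 3 A-196 and 0 of 3 DMSO libraries. Promoters covered in treated and not in control libraries were thus found among CpG-dense starts and also among CpG-poor ones. That of OR4K1, an olfactory receptor gene with 2 CpG, lay under a peak in 3 of 3 A-196 and 0 of 3 DMSO libraries, and in 2 siSUV420H1 and all 4 siNC libraries. NDUFS4, a subunit of mitochondrial complex I, has 10 CpG in its promoter, which lay under a peak in 0 of 3 A-196 and 3 of 3 DMSO libraries, and in 0 siSUV420H1 libraries and 1 siNC library. Of the 711 coding genes of the windows, 561 had a RefSeq promoter, with a median of 17 CpG, against 22 over all 15842 coding promoters matched. Promoters of the windows under a peak in every library of a group numbered 16 for A-196 and 20 for DMSO, and 27 for siSUV420H1 and 23 for siNC. Over the 15281 promoters outside the windows the same counts were 177 for A-196 and 506 for DMSO, and 321 for siSUV420H1 and 448 for siNC. Such counts fall where libraries of a group are less alike. Per library, 30.3 ± 7.02 window promoters lay under a peak in A-196 and 26.3 ± 2.31 in DMSO libraries (SD, n = 3 each). The siRNA arm had 34.8 ± 4.03 in siSUV420H1 and 28.8 ± 1.89 in siNC libraries (SD, n = 4 each). Outside the windows the means were 443 and 666, and 406 and 564.5.

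The 14 lists together held between 8430 and 14675 peaks per library and covered 79.6 to 193 Mb of the genome. Within the windows the A-196 libraries were the least alike: a pair of them shared on average 0.512 of the bases that either covered (Jaccard index), against 0.751 for pairs of DMSO libraries, 0.790 for siSUV420H1 and 0.812 for siNC. A-196 replicate 3 covered the most of the windows in its group and A-196 replicate 1 covered the least of the remaining genome, so values of the inhibitor arm are also given without single libraries where that moves them. The DMSO and siNC libraries themselves differed, with 0.543 of their bases shared on average in the windows, and the way of treatment and the IgG library cannot be told apart between the arms.

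Mean H4K20me3 cover of the pericentromeric windows was no lower in A-196 and siSUV420H1 libraries than in their controls, whereas the rest of the same chromosomes had far less cover in every treated library than in any control library of its arm. Peaks covered 10.8, 10.6 and 14.03 Mb of the windows in the A-196 libraries, against 10.6, 10.1 and 10.2 Mb in the DMSO libraries. They covered 14.8, 15.4, 14.4 and 15.1 Mb in the siSUV420H1 libraries, against 13.9, 14.8, 14.7 and 14.1 Mb in the siNC libraries. Every A-196 library lay above every DMSO library, though the lowest A-196 library exceeded the highest DMSO library by very little, and the siRNA groups overlapped. The mean log2 difference of covered length was 0.19 for A-196 against DMSO (exact two-sided permutation test, p = 0.1, the smallest p that 3 against 3 libraries allow) and 0.06 for siSUV420H1 against siNC (exact permutation p = 0.114, adjusted p = 0.152 over 4 measures of the windows). Without single libraries the difference ranged between 0.06 and 0.26 in the inhibitor arm and between 0.04 and 0.07 in the siRNA arm. The separation of A-196 from DMSO libraries was lost without chromosome 7 (0.11, exact permutation p = 0.8), with peaks at or above the median width only (0.017, exact permutation p = 1) and with an equal number of widest peaks per library (0.13, exact permutation p = 0.6). Without chromosome 7 the siRNA arm differed by 0.015 (exact permutation p = 0.714).

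Outside the windows, the same 21 chromosomes had 72.7 ± 12.4 Mb under peaks in A-196 libraries and 127 ± 3.69 Mb in DMSO libraries (SD, n = 3 each). The siRNA arm's remainder had 95.7 ± 3.48 Mb in siSUV420H1 libraries and 162 ± 4.77 Mb in siNC libraries (SD, n = 4 each). The windows thus took 15.6%, 11.7% and 15.05% of the covered bases of these chromosomes in the A-196 libraries, against 7.46%, 7.38% and 7.59% in the DMSO libraries. Their share was 13.5% ± 0.116 in siSUV420H1 libraries and 8.14% ± 0.0652 in siNC libraries. No library of a treated group overlapped its controls in either arm. The log2 ratio of covered length in the windows to that in the remainder was higher by 1.01 in A-196 than in DMSO libraries (exact permutation p = 0.1, the smallest possible with 3 against 3) and by 0.82 in siSUV420H1 than in siNC libraries (exact permutation p = 0.0286, the smallest possible with 4 against 4, and 0.0571 after adjustment over 4 measures). Without chromosome 7, whose window holds the largest share of covered length, these ratios differed by 0.95 and 0.78. The lists give no sequencing depth.

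**Figure D1:**
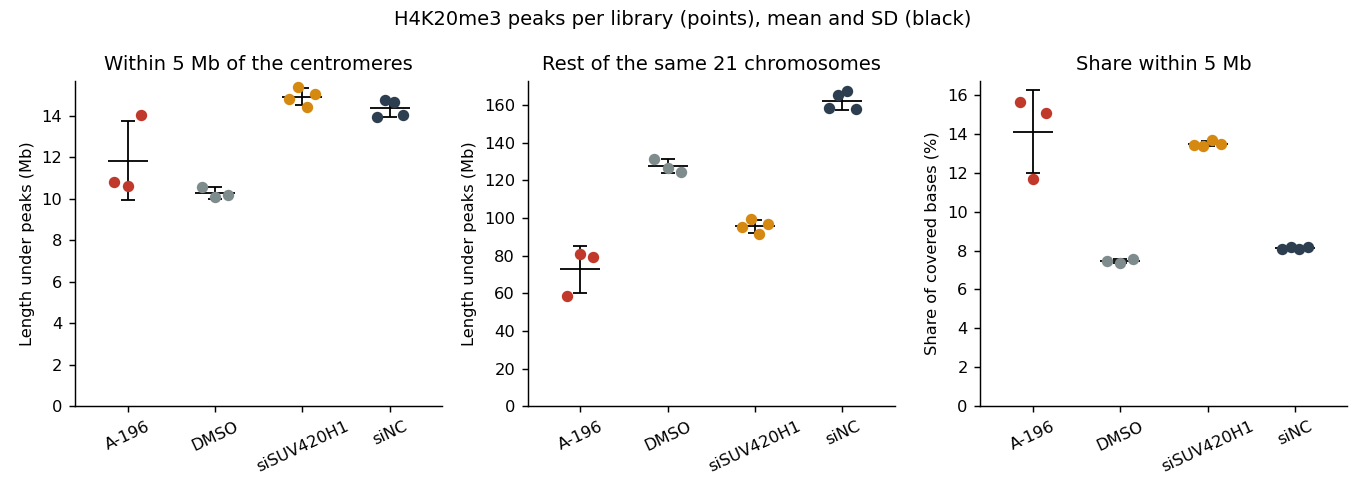
Length under H4K20me3 peaks per library within 5 Mb of the centromeres (Mb, left), in the rest of the same 21 chromosomes (Mb, middle) and the share of covered bases that lies within 5 Mb (%, right), for A-196 and DMSO (n = 3 each) and siSUV420H1 and siNC (n = 4 each). Points are libraries and black marks the mean and SD: the remainder is lower in each treated group than in its controls and the share within 5 Mb is higher, while the covered length within 5 Mb is close between the groups.

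The number and width of pericentromeric peaks went different ways in the arms. The windows held 738, 914 and 835 peaks in A-196 libraries, against 561, 570 and 546 in DMSO libraries, and their median width was 7.67 ± 0.577 kb in A-196 and 10 ± 0 kb in DMSO libraries (SD, n = 3 each). They held 657, 701, 619 and 683 peaks in siSUV420H1 libraries, against 753, 774, 797 and 736 in siNC libraries, with a median width of 10 kb in all 8 libraries. A-196 libraries therefore had more and narrower peaks than DMSO libraries, and siSUV420H1 libraries had fewer peaks than siNC libraries (exact permutation p = 0.0286 and 0.0571 after adjustment over 4 measures). The direction in the siRNA arm turned with an equal number of widest peaks per library (110.25 more peaks, exact permutation p = 0.0286) and within 2.5 Mb (2.75 more, exact permutation p = 0.8). Outside the windows the median width also differed, at 6.33 ± 0.577 kb in A-196 and 9.33 ± 0.577 kb in DMSO libraries (SD, n = 3 each). Wide peaks of at least 50 kb numbered 27, 20 and 50 in A-196 libraries and 38, 33 and 37 in DMSO libraries. With the siRNAs they numbered 60 to 66 in siSUV420H1 libraries and 45 to 51 in siNC libraries, without overlap. The widest single peak of the windows measured 579 ± 5.10 kb in siSUV420H1 libraries and 407 ± 0.816 kb in siNC libraries (SD, n = 4 each), and 536 ± 96.5 kb in A-196 libraries and 383 ± 31.6 kb in DMSO libraries (SD, n = 3 each).

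Cover depended on the distance from the centromere, and so did its difference between groups. The innermost 1 Mb on both sides was sparsely covered, at 1.41% of its bases in A-196 and 1.23% in DMSO libraries, and at 1.97% in siSUV420H1 and 1.78% in siNC libraries. In both arms the treated and control groups overlapped in this bin. These shares count all bases of a bin, and how reads from repeats were placed is not given. Whether peaks could be called in the innermost bin was not tested. Between 2 and 3 Mb, 8.14% of bases lay under peaks in A-196 and 6.77% in DMSO libraries, and 11.1% in siSUV420H1 and 10.1% in siNC libraries. This was the most covered bin in all groups but DMSO, which had 7.25% between 3 and 4 Mb. Between 1 and 2 Mb, peaks covered 2611 ± 495 kb in A-196 libraries, against 1852 ± 69.6 kb in DMSO libraries (SD, n = 3 each). The same bin had 3702 ± 164 kb in siSUV420H1 and 3169 ± 160 kb in siNC libraries (SD, n = 4 each), and in the bins from 1 to 3 Mb every treated library lay above every control library of its arm. From 4 to 5 Mb the siRNA arm went the other way, with 2417 ± 88.4 kb in siSUV420H1 and 2690 ± 61.5 kb in siNC libraries (SD, n = 4 each, no overlap), while A-196 and DMSO libraries overlapped at 2093 ± 247 and 2021 ± 61.3 kb (SD, n = 3 each). Taken over 0 to 3 Mb, covered length was 1.27-fold in A-196 relative to DMSO libraries and 1.12-fold in siSUV420H1 relative to siNC libraries, and over 3 to 5 Mb it was 1.03-fold and 0.929-fold. The window of 5 Mb thus joins an inner zone, with more cover from 1 to 3 Mb, and an outer zone in which the siRNA arm has less.

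**Figure D2:**
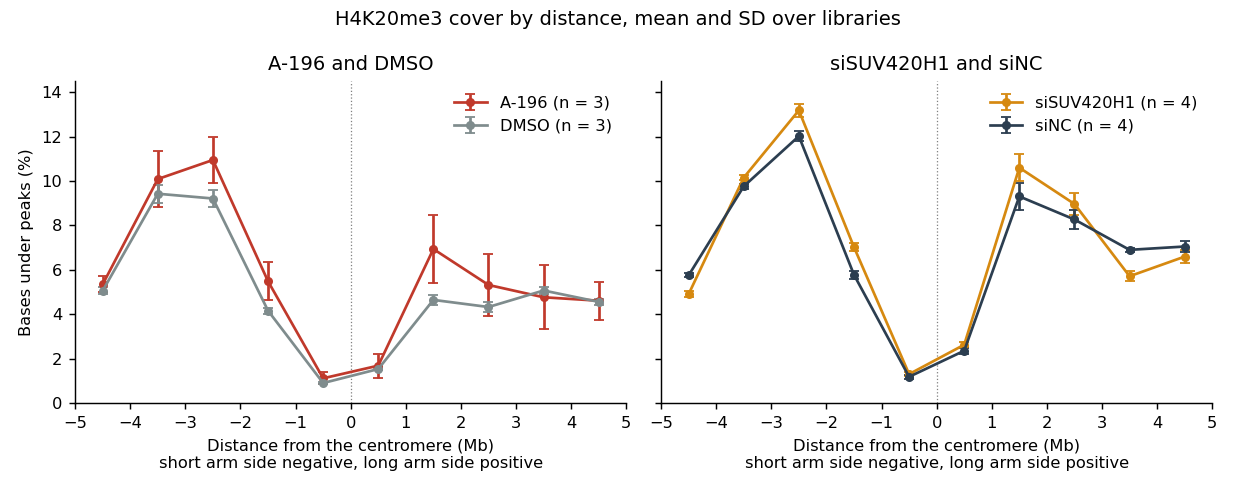
Share of bases under H4K20me3 peaks (%) in bins of 1 Mb by distance from the centromere (Mb, short arm side negative), summed over 21 chromosomes, as mean and SD over libraries of A-196 and DMSO (left) and siSUV420H1 and siNC (right). Cover is lowest in the innermost bins, both treated lines run above their controls between 1 and 3 Mb, and the siSUV420H1 line runs below siNC in the outermost bins. Whether peaks could be called in the innermost bins was not tested.

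The windows of single chromosomes differed in direction. In the siRNA arm 14 of 21 windows passed the exact permutation test with Benjamini-Hochberg adjustment over all 44 location units of the arm (21 windows, 21 remainders, chromosomes 19 and X), each with an adjusted p of 0.037. Cover rose in 6 of them, on chromosomes 7, 10, 15, 16, 20 and 21, and fell in 8, on chromosomes 2, 3, 4, 5, 6, 8, 13 and 18. Over all location units 15.9% were higher and 61.4% lower in every siSUV420H1 than in every siNC library, and of the 21 remainders 0 were higher and 19 lower. In the inhibitor arm 8 windows were higher and 6 lower in every A-196 than in every DMSO library, against 18.2% and 52.3% of all units, and of the remainders 0 were higher and 17 lower. No unit of the inhibitor arm could pass, the smallest adjusted p by the exact permutation test being 0.142. Chromosomes 7, 16 and 20 were higher in both arms, chromosomes 3, 5, 6, 8, 13 and 18 were lower in both, and 1 window, that of chromosome 2, was called in opposite directions.

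The window of chromosome 16 had the largest positive log2 difference in the siRNA arm, while in kb its gain was about that of chromosome 7. Peaks covered 432, 389 and 615 kb of it in A-196 libraries, against 233, 211 and 214 kb in DMSO libraries. They covered 888, 1000, 827 and 937 kb in siSUV420H1 libraries, against 414, 518, 508 and 462 kb in siNC libraries. The treated libraries lay above all their controls in both arms, with folds of 2.18 and 1.92. The window of chromosome 7 was by far the most heavily marked and held 25.04% of the covered length of all windows in A-196, 20.8% in DMSO, 19.8% in siSUV420H1 and 17.6% in siNC libraries. It had 2772, 2665 and 3431 kb under peaks in A-196 libraries, against 2213, 2051 and 2146 kb in DMSO libraries, and 2960 ± 82.7 kb in siSUV420H1 and 2522 ± 45.0 kb in siNC libraries (SD, n = 4 each). At the other end, the window of chromosome 3 had 77, 103 and 110 kb in A-196 libraries and 130, 148 and 114 kb in DMSO libraries. It had 84, 113, 89 and 93 kb in siSUV420H1 libraries and 140, 174, 186 and 167 kb in siNC libraries, a fold of 0.568. Chromosome 14 showed a wide gap between the control groups. Its window had 212 ± 67.9 kb in A-196 and 92.3 ± 17.6 kb in DMSO libraries (SD, n = 3 each), but 511 ± 23.3 kb in siSUV420H1 and 490 ± 50.3 kb in siNC libraries (SD, n = 4 each), where the groups overlapped.

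**Figure D3:**
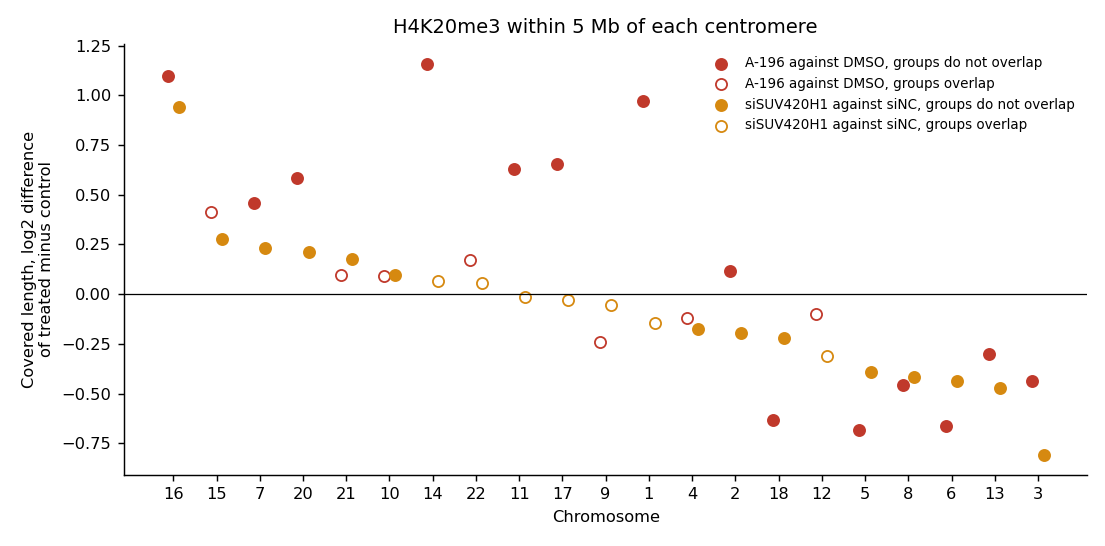
Log2 difference of covered length (treated minus control) within 5 Mb of the centromere of each chromosome, for A-196 against DMSO (red, n = 3 each) and siSUV420H1 against siNC (orange, n = 4 each), ordered by the siRNA arm. Filled points mark windows in which no treated library overlaps a control library, with chromosomes 7, 16 and 20 above 0 and chromosomes 3, 5, 6, 8, 13 and 18 below 0 in both arms.

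Among the 1538 regions, 179 (11.6%) had a peak in all 14 libraries, against 1419 (4.64%) of the 30608 regions elsewhere, and 627 were seen in 1 library only. Their median width was 8 kb, as elsewhere, but 97 (6.31%) were 50 kb or wider, against 2.21% elsewhere. A region was called lost where all control libraries but no treated library had a peak, kept where every control and every treated library had one, and gained where every treated and no control library had one. All DMSO libraries marked 307 window regions, of which A-196 libraries had lost 32 (10.4%) and kept 195 (63.5%), against 26.5% lost and 32.9% kept over all regions of the genome. All siNC libraries marked 440, of which siSUV420H1 libraries had lost 71 (16.1%) and kept 310 (70.5%), against 32.1% and 49.6%. Gains numbered 42 in the inhibitor arm (3.69% of 1138 regions with a peak in the arm, against 1.17% over the genome) and 22 in the siRNA arm (2.33% of 946, against 1.46%). Without A-196 replicate 3 the losses numbered 52 and the gains 83, and the gains numbered 81 without A-196 replicate 1, 69 without A-196 replicate 2 and, in the siRNA arm, 34 without siSUV420H1 replicate 2.

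Covered length per region was higher in every A-196 than in every DMSO library in 93 regions (8.17%, against 1.61% over the genome) and lower in 119 (10.46%, against 18.8%). Without A-196 replicate 1 the number higher was 146, and without A-196 replicate 2 it was 152. For the siRNAs, 122 regions were higher (12.9%, against 4.79%) and 161 lower (17.02%, against 33.2%). No region passed an adjusted p of 0.05 in the exact permutation test over all regions of an arm. The smallest adjusted p of that test was 0.489 in the inhibitor arm and 0.0752 in the siRNA arm. Its unadjusted p was under 0.05 for 0 window regions of the inhibitor arm. In the siRNA arm it was so for 283 of 946, which are the regions called higher or lower above, against 7144 of 18800 over the genome. Single regions below are therefore described by their values and by whether the groups overlap. The regions lower in siSUV420H1 libraries lay at a median of 3.64 Mb from the centromere and those higher at 2.42 Mb, and in the inhibitor arm the medians were 3.52 and 2.58 Mb. Of the lost regions, 43.8% in the inhibitor arm and 39.4% in the siRNA arm overlapped a coding gene, against 27.2% of all window regions and 18.4% of those present in all 14 libraries. Of these 179, 80 overlapped an annotated pseudogene, against 279 of all 1538 window regions. Region width was not matched in these overlaps.

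Wide regions are called more readily than narrow ones, so the kept share was also compared within classes of mean covered length in controls. A peak anywhere in the merged region counted, and the width of the merged region was not matched. The comparison therefore does not remove the effect of that width. Regions that averaged 20 to 50 kb in DMSO libraries were kept in 80 of 89 cases (89.9%) in the windows and in 52.7% of 1063 cases elsewhere. Below 10 kb the shares were 31.0% in the windows and 8.69% elsewhere. In the siRNA arm, regions of 10 to 20 kb in siNC libraries were kept in 77.3% of 132 cases in the windows and 58.0% of 3591 elsewhere. In all 4 length classes of both arms the share was higher in the windows, and the gap was smallest at 50 kb or more, with 98.4% in the windows and 97.1% elsewhere in the siRNA arm. These shares are descriptions, as regions of a library share its depth.

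**Figure D4:**
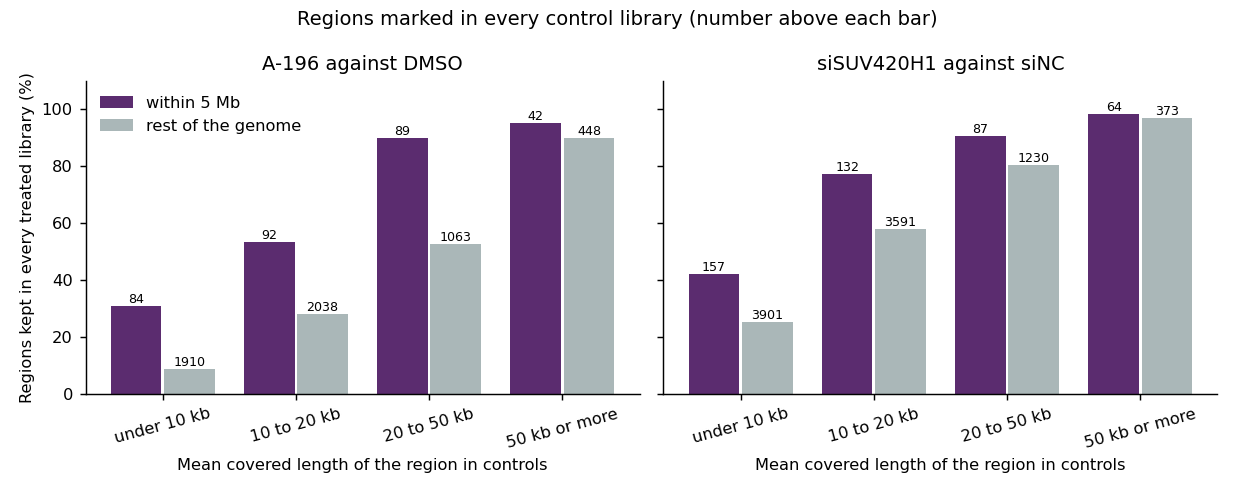
Share of regions marked in every control library that kept a peak in every treated library (%), by the mean covered length of the region in controls, for regions within 5 Mb of a centromere (purple) and the rest of the genome (grey), in the A-196 arm (left) and the siSUV420H1 arm (right). The number of regions stands above each bar, and the purple bar is the higher one in all 8 pairs.

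Among the longest regions present in all 14 libraries, 3 lay on chromosome 7. The region chr7:63775001-64381000 spans ZNF722, ZNF727, ZNF735, ZNF679 and ZNF736, zinc finger genes of a cluster on the long arm side. Peaks covered 279, 193 and 490 kb of it in A-196 libraries, against 159, 158 and 154 kb in DMSO libraries, and 571, 579, 578 and 547 kb in siSUV420H1 libraries, against 454, 459, 423 and 461 kb in siNC libraries. The treated libraries lay above their controls in both arms, and all siNC libraries lay above all DMSO libraries. The region chr7:56936001-57614000, which holds ZNF479 and ZNF716, had 626, 636 and 676 kb in A-196 libraries and 592, 557 and 592 kb in DMSO libraries, and 648 ± 11.8 kb in siSUV420H1 and 592 ± 11.7 kb in siNC libraries (SD, n = 4 each). Both of its coding genes were covered over their full length with flanks in all 14 libraries. The widest region, chr7:56089001-56817000, begins within PHKG1, a catalytic subunit of phosphorylase kinase, and includes CHCHD2, a mitochondrial protein, and NUPR2. It had 702, 672 and 721 kb in A-196 libraries and 605, 564 and 604 kb in DMSO libraries, and 501 to 529 kb in siSUV420H1 and 464 to 473 kb in siNC libraries.

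Several long regions hold no coding gene. On the short arm side of chromosome 21, chr21:9836001-10172000 was covered over all of its 336 kb in each siSUV420H1 library and over 329 to 334 kb in siNC libraries, and over 216, 173 and 310 kb in A-196 and 197, 190 and 176 kb in DMSO libraries, where the groups overlapped. The region chr16:34690001-34823000 has no annotated gene and lies 300 kb from the nearest coding gene. It had 120, 128, 120 and 118 kb in siSUV420H1 libraries and 49, 49, 72 and 55 kb in siNC libraries, and 61, 34 and 61 kb in A-196 and 31, 30 and 30 kb in DMSO libraries. On chromosome 20, chr20:29584001-29924000 holds pseudogenes such as CDC27P3 and DUX4L37. Its cover was 180, 189 and 223 kb in A-196 and 141, 135 and 133 kb in DMSO libraries, and 318 ± 8.46 kb in siSUV420H1 and 273 ± 18.6 kb in siNC libraries (SD, n = 4 each). None of these 3 regions had a treated library below a control library in the siRNA arm.

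The largest negative differences lay mostly over 3 Mb from the centromere. The largest of the siRNA arm, chr7:55597001-55761000, holds LOC101060341 and had 74, 70, 73 and 59 kb in siSUV420H1 libraries and 140, 128, 131 and 136 kb in siNC libraries. In the inhibitor arm it had 110, 121 and 156 kb in A-196 and 148, 141 and 148 kb in DMSO libraries, and those groups overlapped. The region chr20:23079001-23206000, 4.96 Mb from the centromere, overlaps CD93, a surface receptor of endothelial and myeloid cells. Its covered length was 23, 12 and 29 kb in A-196 libraries and 116, 123 and 127 kb in DMSO libraries, and 0, 0, 5 and 0 kb in siSUV420H1 libraries and 62, 66, 56 and 75 kb in siNC libraries. No treated library came near its controls in the covered length of this region. CD93 itself, with 2 kb on each side, had 0.324, 9 and 9.32 kb in DMSO libraries and 0 kb in all A-196, siSUV420H1 and siNC libraries. The difference of the siRNA arm thus lay outside the gene. On chromosome 18, chr18:22808001-22918000 ends just inside RBBP8, which encodes the DNA end resection factor CtIP. It had 46, 34 and 81 kb in A-196 and 106, 107 and 107 kb in DMSO libraries, and 54.8 ± 3.86 kb in siSUV420H1 and 98.2 ± 6.65 kb in siNC libraries (SD, n = 4 each). A stretch of SPIDR, a scaffold protein of homologous recombination, at chr8:47331001-47390000 had 5, 0 and 19 kb in A-196 and 58, 57 and 45 kb in DMSO libraries, and 0 to 6 kb in siSUV420H1 and 44 to 49 kb in siNC libraries. The long region chr5:53160001-53443000, which ends 37.6 kb from FST, the gene of the activin antagonist follistatin, had 184, 147 and 241 kb in A-196 and 279, 274 and 278 kb in DMSO libraries, and 242 ± 6.78 kb in siSUV420H1 and 268 ± 2.08 kb in siNC libraries (SD, n = 4 each). The last 4 regions, of which that on chromosome 5 was named for the inhibitor arm alone, were lower without overlap in both arms.

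Complete losses shared by the arms numbered 9, which is 28.1% of the losses of the inhibitor arm and 12.7% of those of the siRNA arm, close to the 29.0% and 14.51% of losses shared in the rest of the genome. The widest, chr3:86913001-86940000, reaches into VGLL3, a cofactor of TEAD transcription factors, and had 0 kb in all A-196 and all siSUV420H1 libraries, against 8, 16 and 5 kb in DMSO and 26, 23, 24 and 21 kb in siNC libraries. VGLL3 itself, with 2 kb on each side, had 0, 5 and 0 kb in A-196 and 0, 6.18 and 0 kb in DMSO libraries, which overlapped. It had 0 kb in all siSUV420H1 libraries and 4.03, 3.03, 3.03 and 3.03 kb in siNC libraries, so the gene was lost in the siRNA arm only. Another shared loss, chr3:88025001-88038000, lies 13.9 kb from CGGBP1, which binds CGG repeats. This region had 0 kb in all treated libraries, against 10 to 11 kb in DMSO and 10 to 12 kb in siNC libraries. These shared losses were narrow, between 5 and 26 kb in any control library of the 2 regions. Regions lower without overlap in both arms numbered 64 (53.8% of those of the inhibitor arm and 39.8% of those of the siRNA arm), those higher in both 36 (38.7% and 29.5%), and 5 had opposite calls. In the rest of the genome 61.9% and 42.7% of the lower regions were lower in both arms, and 12.996% and 4.62% of the higher ones were higher in both. There, 125 of 30608 regions had opposite calls.

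Shared gains numbered 2, or 4.76% of the gains of the inhibitor arm and 9.09% of those of the siRNA arm. In the rest of the genome 4 gains were shared, or 1.76% and 1.59%. One of the 2 shared gains of the windows, chr16:35804001-35830000, lies 0.983 Mb from the centromere on the short arm side of chromosome 16. It has no annotated gene. It had 6, 13 and 8 kb in A-196 and 0 kb in DMSO libraries, and 8, 9, 5 and 7 kb in siSUV420H1 and 0 kb in siNC libraries. The stretch covered in every A-196 library was 0 kb, and that covered in every siSUV420H1 library was 3 kb. The gain in A-196 libraries thus holds for the merged region and not for a shared position. Nearby, chr16:35624001-35702000 was gained in A-196 libraries with 19, 13 and 9 kb, against 0 kb in DMSO libraries, and had 58, 34, 41 and 51 kb in siSUV420H1 and 12, 27, 19 and 19 kb in siNC libraries. Here too the stretch covered in every A-196 library was 0 kb. The widest gain of the inhibitor arm, chr14:19914001-20084000, holds the olfactory receptor genes OR4K1, OR4K5, OR4K15, OR4K14, OR4K13 and OR4L1. It had 37, 14 and 35 kb in A-196 and 0 kb in DMSO libraries, whereas siSUV420H1 libraries had 133 to 157 kb and siNC libraries 124 to 164 kb, so the gain in one arm met a region already marked in both groups of the other. Of the olfactory receptor genes in this region, OR4K1 alone was marked in every A-196 library, and OR4K14 and OR4L1 had 0 kb in all A-196 libraries.

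**Figure D5:**
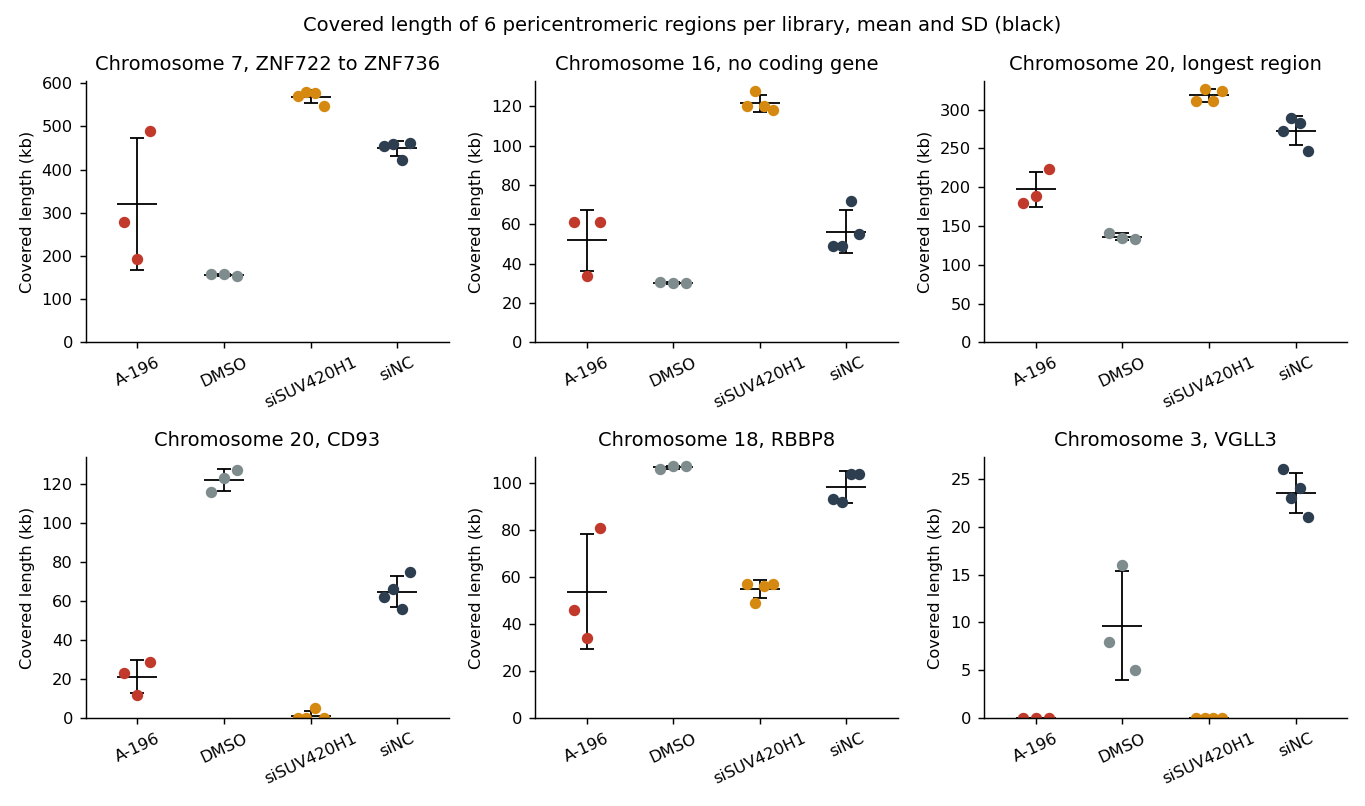
Covered length (kb) of 6 pericentromeric regions in each library (points), with mean and SD (black), for A-196 and DMSO (n = 3 each) and siSUV420H1 and siNC (n = 4 each). The upper 3 regions lie higher in each treated group than in its controls and the lower 3 lie lower, with the region that reaches into VGLL3 at 0 kb in all 7 treated libraries.

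Of the 711 coding genes whose midpoint lay in a window, a gene counted as marked when 200 bp or more of its span, widened by 2 kb on each side, lay under peaks. On average 123 ± 29.0 genes were marked in A-196 libraries and 84.3 ± 6.66 in DMSO libraries (SD, n = 3 each), and 106 ± 2.63 in siSUV420H1 and 116 ± 3.77 in siNC libraries (SD, n = 4 each). Over all 19862 coding genes, 2710 ± 848 were marked in A-196 and 2349 ± 40.3 in DMSO libraries (SD, n = 3 each), which overlapped. The siRNA arm had 2353 ± 84.5 in siSUV420H1 and 3184 ± 53.3 in siNC libraries (SD, n = 4 each). Of 64 genes that all DMSO libraries marked, A-196 libraries had lost 2 and kept 40, where 18% of such genes were lost and 45.2% kept over the genome. Of the 101 marked in every siNC library, 9 were lost and 80 kept in siSUV420H1 libraries, against 21.5% and 64.1% over the genome. Gains numbered 8 of 711 in the inhibitor arm, where 0.811% of all coding genes of the genome were gained, and 3 of 711 in the siRNA arm, where 0.342% were. Losses in the inhibitor arm numbered 9 without A-196 replicate 3 and 4 without DMSO replicate 1 or 3. Gains there numbered 20 without A-196 replicate 3, 15 without A-196 replicate 1 and 13 without DMSO replicate 3, and in the siRNA arm 6 without siSUV420H1 replicate 2.

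C2H2 zinc finger genes, most of which encode DNA-binding repressors, were the most steadily marked family. Of 32 in the windows, 21.7 ± 1.15 were marked per A-196 library and 21 ± 1 per DMSO library (SD, n = 3 each), and 24 ± 0 per siSUV420H1 and 23.8 ± 0.957 per siNC library (SD, n = 4 each). Of those marked in every control library, 15 of 18 were kept in A-196 libraries and 23 of 23 in siSUV420H1 libraries, and 0 were lost in either arm. Covered length was longer in every siSUV420H1 than in every siNC library for 10 of the 32 and shorter for 0, whereas in the inhibitor arm 4 were longer and 3 shorter. Over the 711 window genes 25 were longer and 26 shorter in the siRNA arm and 18 and 18 in the inhibitor arm, and over all coding genes 2.08% and 6.74% in the siRNA arm and 1.09% and 5.51% in the inhibitor arm. ZNF680 was one that differed in direction, with 31.9, 19 and 41.9 kb in A-196 and 54.0, 45 and 46.1 kb in DMSO libraries, and 61.3 ± 2.50 kb in siSUV420H1 and 40.7 ± 2.98 kb in siNC libraries (SD, n = 4 each). ZNF736 was longer in both arms, with 36, 25 and 37.6 kb in A-196 and 14, 19.04 and 21 kb in DMSO libraries, and 42.7 ± 3.55 kb in siSUV420H1 and 30.03 ± 6.16 kb in siNC libraries (SD, n = 4 each).

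Of 88 olfactory receptor genes, which encode odorant receptors of the nasal epithelium, 10.7 ± 2.08 were marked in A-196 libraries and 0.667 ± 0.577 in DMSO libraries (SD, n = 3 each). Among the siRNA libraries, 13.8 ± 2.36 were marked in siSUV420H1 and 11.5 ± 0.577 in siNC libraries (SD, n = 4 each). Of the 8 genes gained in the inhibitor arm, 4 belonged to the family: OR5D3, OR8I2, OR4K1 and OR4K17. Of 40 genes of families spread by pericentromeric segmental duplication, 4.33 ± 1.53 were marked in A-196 and 2.67 ± 0.577 in DMSO libraries (SD, n = 3 each), and 3 ± 0.816 in siSUV420H1 and 2 ± 0.816 in siNC libraries (SD, n = 4 each). TPTE of this list had 73.1, 79.1, 83.1 and 70.1 kb covered in siSUV420H1 libraries and 56.7, 60.7, 68.7 and 61.7 kb in siNC libraries, without overlap, and 45, 38 and 72.7 kb in A-196 and 44, 30 and 16 kb in DMSO libraries, which overlapped. Of 18 cystatin and beta-defensin genes, 3 ± 3.46 were marked in A-196 and 0 in DMSO libraries (SD, n = 3 each). With the siRNAs, 0 were marked in siSUV420H1 libraries and 1 in each siNC library, CST9L, which was lost.

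The receptor kinase and GABA receptor genes of chromosome 4, 6 in number, had 2 marked in each A-196 library and 0.667 ± 0.577 in DMSO libraries (SD, n = 3 each), and 1.75 ± 0.957 in siSUV420H1 and 1 in each siNC library. PDGFRA, a growth factor receptor kinase, was covered over 15, 8, 9 and 9 kb in siSUV420H1 libraries, against 18.2, 22.2, 21.2 and 20.2 kb in siNC libraries. The remaining 527 genes held all but 1 of the losses. In the inhibitor arm these included NDUFS4, with 0 kb in A-196 libraries and 3.36, 9.36 and 4.36 kb in DMSO libraries, but 8 to 9 kb in siSUV420H1 and 8 to 12.4 kb in siNC libraries. LRRK2, a large protein kinase, was lost in both arms, with 0 kb in all A-196 and siSUV420H1 libraries, against 8, 12 and 8 kb in DMSO and 11, 13, 13 and 14 kb in siNC libraries. Among the siRNA losses were PTP4A1, a phosphatase, and its neighbour LGSN, both with 0 kb in all siSUV420H1 libraries. In siNC libraries PTP4A1 had 14, 7, 26 and 8 kb and LGSN had 22, 15, 34 and 14 kb. The spans of the genes overlap, so their marks cannot be told apart. COL21A1, a collagen gene that kept its mark, had 17, 18 and 25 kb in A-196 and 71, 80 and 68 kb in DMSO libraries, and 62 ± 6.98 kb in siSUV420H1 and 153 ± 4.77 kb in siNC libraries (SD, n = 4 each).

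The arms were also set against each other on 4 measures of the windows, with group labels permuted exactly inside each arm. The p of this permutation refers to no difference in either arm, and not to equal differences in both. The difference in the number of peaks was 270 for A-196 minus DMSO and -100 for siSUV420H1 minus siNC, which differed by 370 (exact permutation p = 0.00143, adjusted p = 0.00571). The call was lost with an equal number of widest peaks per library (60.42 peaks, exact permutation p = 0.517) and with windows of 2.5 Mb (137.25 peaks, exact permutation p = 0.0629). For covered length the arms differed by 0.13 on the log2 scale (exact permutation p = 0.557), and for the ratio to the remainder by 0.20 (exact permutation p = 0.807). With this number of libraries, a p above the threshold does not show that the arms act alike.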

How the data were processed

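H4K20me3 peak lists of 14 CUT&RUN libraries were used, grouped by their titles; 10 other libraries of the 24 (IgG, H3K4me3 and H3K27me3) were not analysed here. The authors deposited 1 list of broad peaks per library, with start and end coordinates in bp but neither scores nor reads. Per the submitters' processing notes, cutadapt 4.4, Bowtie, Picard 2.27.3 and bedtools 2.30.0 were used on hg38; neither the peak caller nor the placing of reads from repeats is given in the sources used here. Peak ends lay on a 1000 bp grid, no peak was narrower than 5 kb and gaps were at least 2 kb, so smaller differences are invisible, and the depth is unknown, so no interval is given.

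Covered length, peak number and median width were computed per library with Python 3.11.15, numpy 2.4.6 and pandas 2.3.3. The computation of covered length, the exact test and the region calls were checked on simulated data. Group differences were tested by permuting libraries exactly (two-sided), on log2 for lengths (log2 of kb plus 1 for single chromosomes), with Benjamini-Hochberg adjustment over all regions, units or measures and a threshold of 0.05. Gene spans and promoters came from RefSeq GRCh38.p14. The members, gene families and settings were chosen with earlier results of these data known. Regions named were, per arm, the 6 widest lost, the 4 widest gained and the 5 largest falls and rises among other regions without overlap, the 8 longest in all 14 libraries and the 6 widest lost in both arms; genes named overlap these or are up to 4 lost, gained or kept members per family. ZNF514 was chosen after its values were seen. Libraries of the same number did not deviate together, and no 2 lists shared over 23.5% of peaks. Alternatives covered the window width, the peaks used, the rule for presence, the replicate block and single libraries left out; omitting chromosome 7 was chosen after seeing the data.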

Additional observations from a re-analysis of the deposited data

Results flagged for a closer look

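The number of pericentromeric peaks differed between the arms in direction. Windows held 829 ± 88.2 peaks in A-196 libraries and 559 ± 12.1 in DMSO libraries (SD, n = 3 each), a difference of 270, and 665 ± 35.6 in siSUV420H1 and 765 ± 26.4 in siNC libraries (SD, n = 4 each), a difference of -100. The arms' differences were 370 peaks apart (exact permutation of labels within each arm, p = 0.00143, adjusted p = 0.00571 over 4 measures), and between 327.5 and 415.5 apart when single libraries were left out. The unadjusted p is the smallest that this permutation allows. It refers to no difference in either arm, and not to equal differences in both. Peaks over the whole genome numbered 8505 to 13464 in A-196 and 8430 to 8921 in DMSO libraries, and 9325 to 10203 in siSUV420H1 and 13818 to 14675 in siNC libraries. The total was thus lower in siSUV420H1 than in siNC libraries without overlap, while A-196 and DMSO libraries overlapped. With an equal number of the widest peaks taken from each library the arms were 60.42 peaks apart (exact permutation p = 0.517), and with windows of 2.5 Mb 137.25 apart (exact permutation p = 0.0629), so the call was lost in both settings. Among the 50 groups of 4 libraries looked at, all from the siRNA arm, 0 had a library far from the others. The A-196 and DMSO groups, with n = 3 each, were not among them.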

How the results depend on the processing

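The higher ratio of windows to remainder kept its direction under every alternative tried in both arms. Replicate numbers did not pair the libraries (correlations of deviations -0.11 to 0.09 and -0.31 to 0.10), and with the replicate block the exact p was 0.125 for the siRNA ratio of 0.82 and for the -100 peaks. With windows of 10 Mb, log2 covered length differed by -0.16 (A-196) and -0.11 (siSUV420H1) and the arms by -0.047; with 2.5 Mb the siRNA difference was 0.21 (p = 0.0286, exact permutation) and its peak difference 2.75, and the arms differed by 137.25 peaks. With peaks at or above the median width the A-196 length differed by 0.017 (exact permutation p = 1), the siRNA length by 0.10 (exact permutation p = 0.0286) and the arms by -0.081. With an equal number of widest peaks the A-196 length differed by 0.13 (exact permutation p = 0.6), the siRNA length by 0.21, its peaks by 110.25 and its median width by -2.5 kb (exact permutation p = 0.0286 each), and the arms by -0.082 and by 60.42 peaks. The cause of these shifts was not tested.

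Counts followed the window width. At 2.5 Mb, windows lower numbered 1 (A-196) and 1 (siSUV420H1), regions lost 5 and 7, gained 20 and 10, higher 47 and 62, lower 21 and 25, genes lost 0 and 1, gained 3 and 0. At 10 Mb, windows lower numbered 10 and 13, regions lost 133 and 216, gained 68 and 37, lower 404 and 493, genes lost 22 and 41, gained 26 and 7. At or above the median width, A-196 gave 3 windows higher, 14 regions gained and 47 higher, 7 genes lost and 1 gained, and siSUV420H1 gave 43 regions lost and 95 lower. With equal numbers of widest peaks, A-196 gave 5 genes gained, and siSUV420H1 gave 2 windows lower, 26 regions lost, 49 gained, 100 lower, 1 gene lost and 11 gained. Counting a region only where 50% of it was covered, A-196 gave 55 lost and 24 gained. Single libraries left out gave 36 to 52 regions lost, 45 to 83 gained and 97 to 152 higher and 3 to 9 genes lost and 8 to 20 gained in the inhibitor arm, and 22 to 34 regions and 3 to 6 genes gained in the siRNA arm. The other 324 recomputed values kept their direction and their side of the threshold or stayed within 1.5 times the count, but no length of the inhibitor arm can pass, and its difference was also 0.11 without chromosome 7 (exact permutation p = 0.8). Peak lists without read counts limit every value to what was called, and 3 against 3 libraries cannot reach p below 0.1.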
